A study of Homo sapiens with 6 samples.

Results

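The expression of 10 genes of bone morphogenetic protein (BMP) signaling was compared in the established human embryonic stem cell line H1, grown in wells coated with laminin-521 alone (LN-521) or with laminin-521 together with laminin-221 (LN-521+LN-221). The genes were taken by symbol: the ligands BMP2, BMP4 and BMP7, the receptors BMPR1A and BMPR2, the target genes ID1, ID2, ID3 and ID4, and the pseudoreceptor BAMBI. All 10 had a gene ID among the 60499 in the deposited tables, and all 10 passed the filter on low counts, among 17608 genes that did. Cells of both groups were kept in NutriStem medium, with a daily change of medium over 4 days, and total RNA was taken at confluence and sequenced from 3 wells per coating, each as its own library. The labels number the wells as biological replicates but do not say whether they came from separate cultures, so p-values measure the spread between these wells, which may be technical.

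BMPs are secreted dimers of the transforming growth factor-beta family. They bind a complex of type I receptors, such as the one encoded by BMPR1A, and type II receptors, such as the one encoded by BMPR2, which phosphorylates SMAD1, SMAD5 and SMAD9; these enter the nucleus with SMAD4. The inhibitor of differentiation genes ID1 to ID4 are among the best known transcriptional responses. ID proteins carry a helix-loop-helix domain without a DNA-binding region, pair with E proteins such as those encoded by TCF3, TCF4 and TCF12, and keep these off the E-box, CANNTG. BAMBI encodes a membrane protein that resembles a type I receptor without a kinase domain and that BMP signaling itself induces. In human pluripotent cells added BMP4 drives exit toward mesoderm, amnion-like and trophoblast-like fates.

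The libraries held between 20606494 and 26836727 estimated counts. The deposited sample sheet gives 1 sequencing batch for all of them, so no split by batch could be made. LN-521 replicate 1 stood apart on the second principal component, at 31.1 against -16.0 to 3.96 for the other libraries. Pluripotent stem cell markers were high in every well, with a summed level per length of 2485 to 2748 TPM (a share of transcripts that corrects for their length) over 8 genes on LN-521 alone against 2518 to 2664 TPM on LN-521+LN-221. Within that list NANOG and POU5F1 fell and LIN28A rose (edgeR adjusted p = 1.65e-04, 0.00366 and 0.00737). The 7 neural ectoderm markers summed to 99.2 to 114 TPM on LN-521 alone against 144 to 146 TPM on LN-521+LN-221, and most of that gap was OTX2, at 45.6 and 79.3 TPM on average. OTX2 and ZIC1 rose (edgeR adjusted p = 4.38e-06 and 0.0474), NES (60.5 and 64.5 TPM, edgeR adjusted p = 0.712) and PAX6 (0.157 and 0.223 TPM, edgeR adjusted p = 0.766) did not pass, and LHX2 had at most 3 counts and SOX1 at most 9 in any library. The sums for mesoderm (2.19 to 2.64 against 2.37 to 2.81 TPM), endoderm (2.06 to 3.3 against 1.33 to 2.45 TPM), amnion and trophoblast (15.9 to 18.4 against 15.1 to 16.96 TPM) and fibroblast markers (128 to 141 against 116 to 143 TPM) overlapped between the coatings. The fibroblast sum was mostly COL1A1 (39.8 and 40.2 TPM on average on LN-521 and on LN-521+LN-221), COL1A2 (41.5 and 47.9 TPM) and THY1 (52.3 and 39.5 TPM). Of these THY1 fell (edgeR adjusted p = 0.0146), while COL1A1 (-0.20 on the log2 scale, adjusted p = 0.0724 by edgeR) and COL1A2 (0.12, adjusted p = 0.449) did not pass. LUM was at 0 and COL3A1 at no more than 1 count in every library. The part of these marker changes in the results below was not tested.

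Of the 10 genes, 3 passed the threshold of 0.05 on the p-value of the edgeR quasi-likelihood test, adjusted by Benjamini-Hochberg over all genes, against 2.53% of all genes. ID1 and ID3 fell on LN-521+LN-221 and ID2 rose. Among all genes 1.14% fell and 1.40% rose by the same rule. ID4 lay on the side of ID2 and just missed the threshold, and BMP4 and BAMBI lay on the side of ID1 and ID3 without passing. The CPM values (counts scaled to library size) of the coatings did not overlap for 6 genes, ID2 and ID4 being higher and BMP4, ID1, ID3 and BAMBI lower. Non-overlap was found for 19.9% of all genes, 10.2% higher and 9.68% lower. The median absolute log2 fold change was 0.32 for the 10 genes and 0.11 for all genes tested. The 10 genes were chosen with earlier results of these data known, so their gap to all genes is no test of the pathway. In bulk RNA a change in the number of cells that express a gene cannot be told apart from a change in RNA per cell.

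**Figure D1:**
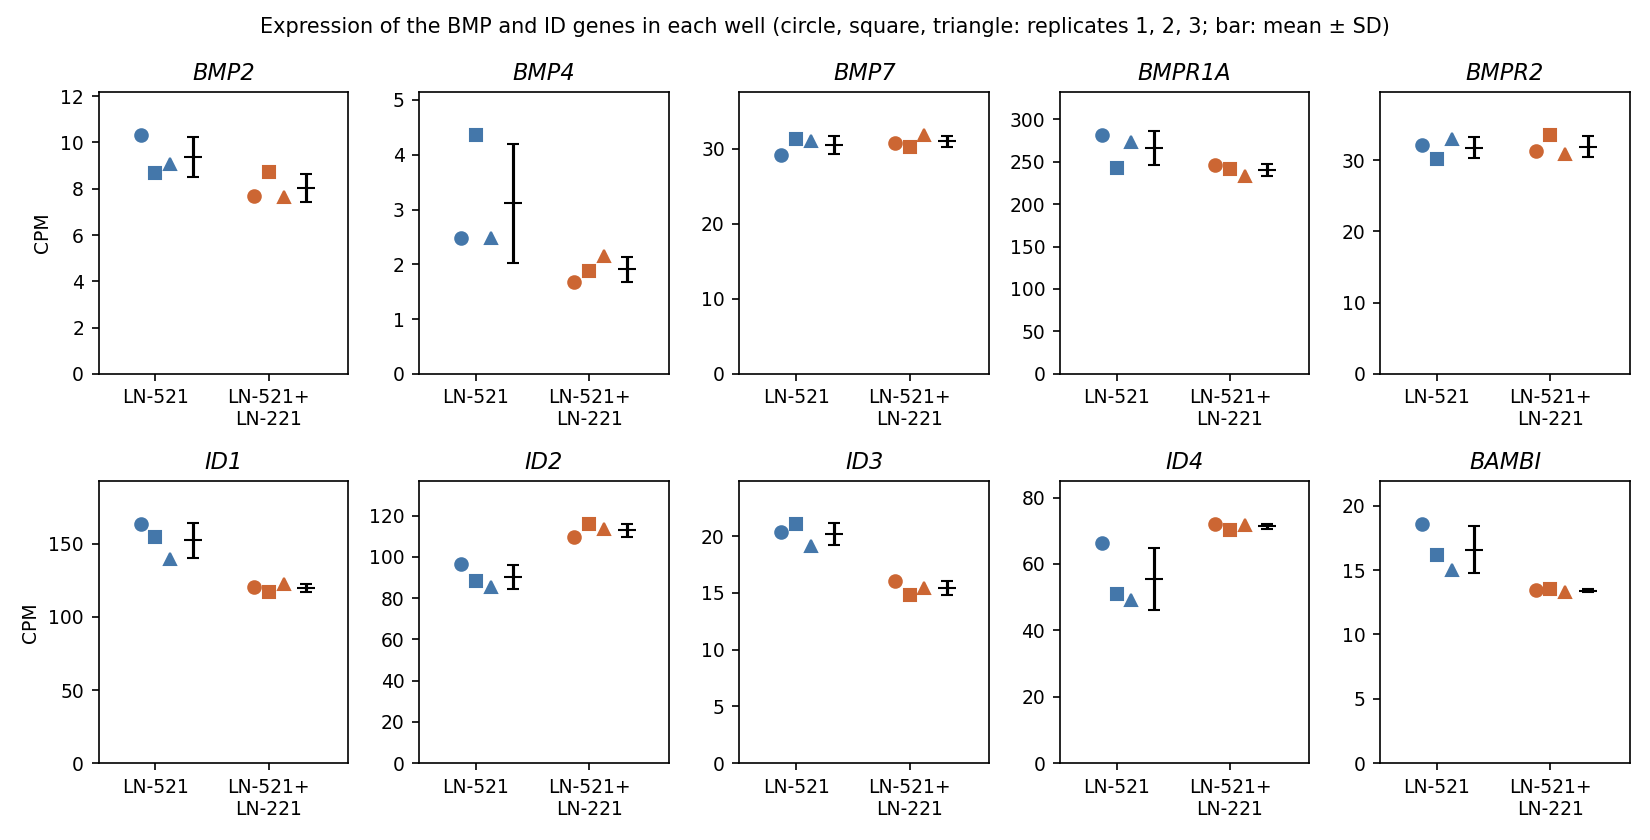
CPM of the 10 genes (vertical axis, from 0) in each well of the 2 coatings (horizontal axis), with the mean and SD of 3 wells beside the points. The wells of the coatings are apart for ID1, ID2, ID3, ID4, BAMBI and BMP4, and interleave for BMP2, BMP7, BMPR1A and BMPR2.

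The ID genes are described first, since the 3 genes past the threshold are among them. ID1 (ENSG00000125968; GRCh38 chr20:31605283-31606515, forward strand) measured 163, 154 and 139 CPM in the LN-521 wells and 120.4, 117 and 122 CPM in the LN-521+LN-221 wells. Every LN-521+LN-221 well lay below every LN-521 well, and the LN-521+LN-221 wells were closer to each other. The group means were 152 ± 12.1 and 119.9 ± 2.70 CPM (SD, n = 3). On the log2 scale ID1 fell by 0.35 ± 0.06 (SE; edgeR adjusted p = 0.00366).

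ID3 (ENSG00000117318; chr1:23557918-23559794, reverse strand) had a lower level and fell as well. It measured 20.4, 21.1 and 19.1 CPM on LN-521 alone against 16.1, 14.8 and 15.5 CPM on LN-521+LN-221, again with no overlap. On the log2 scale ID3 fell by 0.39 ± 0.09 (SE; edgeR adjusted p = 0.0214).

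ID2 (ENSG00000115738; chr2:8678845-8684453, forward strand) went the other way. Its wells measured 96.5, 88.5 and 85.4 CPM on LN-521 alone against 109.5, 115.8 and 113 CPM on LN-521+LN-221, so that the highest LN-521 well was below the lowest LN-521+LN-221 well. On the log2 scale ID2 rose by 0.33 ± 0.06 (SE; edgeR adjusted p = 0.00494). The antisense gene ID2-AS1 overlaps ID2 exons on the other strand. Whether counting used the strand is not given in the sources used here, so reads of the pair cannot be told apart. ID2-AS1 held 5 to 11 counts per library and ID2 2127 to 2683. If strand was ignored, antisense reads could sit in the ID2 count, and this was not tested.

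ID4 (ENSG00000172201; chr6:19837386-19840684, forward strand) measured 66.3, 50.9 and 49.2 CPM on LN-521 alone against 71.9, 70.3 and 71.6 CPM on LN-521+LN-221. The LN-521+LN-221 wells were nearly equal, and LN-521 replicate 1 lay closer to them than to the other LN-521 wells. Its difference of 0.36 ± 0.09 (SE) on the log2 scale was close to that of ID2, but with an edgeR adjusted p of 0.0518 the gene was not called. ID4 passed in 7 of the 17 alternatives, over which its adjusted p ranged from 6.75e-06 to 0.579. On all 6 libraries it passed with DESeq2 (adjusted p = 0.00872), with edgeR and the replicate number as a block (0.000675; 0.00099 with the GC correction added), without abundant RNAs (0.0436), with the CPM filter (0.0453) and without a filter (7.18e-05). Of the fits with 1 library left out it passed only without LN-521 replicate 1, the library that stood apart above, at 0.51 (edgeR adjusted p = 6.75e-06), a fit that called 6.54% of all genes.

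With 1 library left out ID1 passed in 5 of 6 fits, ID2 in 4 and ID3 in 2, and over all 17 alternatives they passed in 14, 13 and 11. Without LN-521+LN-221 replicate 2 none of the 3 passed, with edgeR adjusted p-values of 0.0525 for ID1, 0.0660 for ID2 and 0.165 for ID3, and without LN-521 replicate 3 only ID1 did. ID3 also missed the threshold without LN-521+LN-221 replicate 1 (edgeR adjusted p = 0.0631) or replicate 3 (0.107). Their log2 fold changes stayed between -0.41 and -0.29 for ID1, between 0.26 and 0.38 for ID2 and between -0.43 and -0.33 for ID3 over all alternatives run. With limma on the authors' TPM values, where 44 genes of the whole table passed in place of 446, none of the 10 genes did.

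Ratios between ID genes within a library do not depend on how libraries are scaled to each other. A bias by GC content that differs between libraries would not cancel in them. Transcript GC was 58.1% for ID1 and 57.2% for ID3, against 48.8% for ID2 and 47.0% for ID4. With the GC correction the log2 fold changes were -0.31, -0.35, 0.32 and 0.35 in that order (edgeR adjusted p = 0.0264, 0.00829, 8.88e-05 and 0.0572). The part of GC content in the ratios was not tested. The ratio of ID1 to ID2 counts was 1.69, 1.75 and 1.63 on LN-521 alone against 1.10, 1.01 and 1.08 on LN-521+LN-221. The ratio of ID3 to ID4 counts was 0.307, 0.414 and 0.388 on LN-521 alone against 0.224, 0.2105 and 0.216 on LN-521+LN-221. In both ratios every LN-521 well was above every LN-521+LN-221 well. The ratio of ID1 to ID4, at 2.47 to 3.03 against 1.66 to 1.71, and that of ID3 to ID2, at 0.211 to 0.238 against 0.128 to 0.147, were apart too. By contrast, the ratio of ID1 to ID3 was 7.30 to 8.02 on LN-521 alone against 7.49 to 7.91 on LN-521+LN-221, and that of ID2 to ID4 was 1.46 to 1.74 and 1.52 to 1.65. These overlapped. All 6 pairs are given, without a test, because 3 wells against 3 cannot give an exact permutation p under 0.10.

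**Figure D2:**
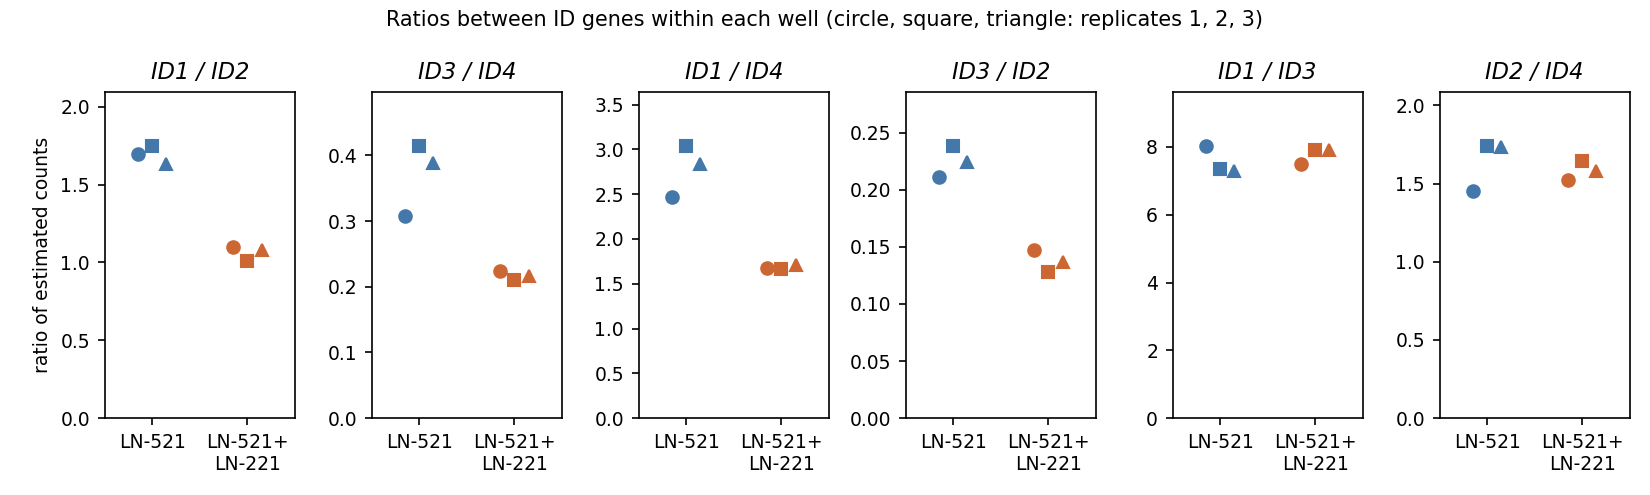
Ratio of estimated counts (vertical axis, from 0) for the 6 pairs of ID genes in each well of the 2 coatings (horizontal axis). The 4 ratios that set ID1 or ID3 against ID2 or ID4 are lower in each LN-521+LN-221 well, which follows from the CPM of these genes. ID1 to ID3 and ID2 to ID4 overlap.

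On the per-length scale ID1 was the leading family member on both coatings. As a share of the summed TPM of the 4 genes it took 57.0% to 58.7% on LN-521 alone against 48.4% to 50.02% on LN-521+LN-221. ID2 took 25.4% to 28.97% and then 32.7% to 35.1%. ID3 took 6.69% to 6.98% and then 5.28% to 5.81%, and ID4 took 7.24% to 9.25% and then 11.1% to 11.5%. None of these 4 shares overlapped between the coatings. The summed TPM itself did overlap, at 223 to 287 on LN-521 alone against 232 to 245 on LN-521+LN-221.

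The bases before the start that RefSeq gives (GRCh38.p14) were searched in windows of 250 bases for the 7 genes with 1 such start, ID1 to ID4, BMPR1A, BMPR2 and BAMBI. RefSeq and GENCODE place some starts differently: by the GENCODE positions printed here the windows of ID2 and ID3 lie wholly inside the gene, as do 179 bases of the BAMBI window and 6 of the ID1 window. The windows of BMPR1A and BMPR2 do not adjoin the GENCODE starts. They end at 86755762 and 202376326, while GENCODE starts these genes at 86756601 and 202376936. Sequences are shown for the 4 genes whose window lies before the GENCODE start, or nearly so, to let a gene that fell, ID1, be read beside genes that were not called. They run 5′ to 3′ on the gene's strand: ID1 (without those 6 bases) at chr20:31605039-31605282 (forward strand), ID4 at chr6:19837120-19837369 (forward strand), BMPR1A at chr10:86755513-86755762 (forward strand) and BMPR2 at chr2:202376077-202376326 (forward strand). Capitals mark matches on either strand to GTCT (or its reverse complement AGAC), the core that SMAD proteins bind, to GGCGCC, a GC-rich element bound by BMP-activated SMADs, and to CANNTG, the E-box.
ID1: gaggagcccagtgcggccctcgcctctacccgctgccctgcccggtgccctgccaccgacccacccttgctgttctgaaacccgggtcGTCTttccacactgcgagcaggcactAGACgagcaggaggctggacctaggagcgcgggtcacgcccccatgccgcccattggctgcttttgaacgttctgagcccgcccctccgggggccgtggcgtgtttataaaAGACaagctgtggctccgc
ID4: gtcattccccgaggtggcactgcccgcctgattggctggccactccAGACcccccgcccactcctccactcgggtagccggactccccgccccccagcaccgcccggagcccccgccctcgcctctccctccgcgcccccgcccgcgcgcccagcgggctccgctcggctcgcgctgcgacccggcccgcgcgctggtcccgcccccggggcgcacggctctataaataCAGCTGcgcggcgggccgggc
BMPR1A: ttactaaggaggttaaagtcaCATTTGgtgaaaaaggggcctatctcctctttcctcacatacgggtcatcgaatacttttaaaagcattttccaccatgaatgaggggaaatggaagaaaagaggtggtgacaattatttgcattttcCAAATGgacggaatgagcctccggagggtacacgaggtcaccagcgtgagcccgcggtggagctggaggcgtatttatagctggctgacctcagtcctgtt
BMPR2: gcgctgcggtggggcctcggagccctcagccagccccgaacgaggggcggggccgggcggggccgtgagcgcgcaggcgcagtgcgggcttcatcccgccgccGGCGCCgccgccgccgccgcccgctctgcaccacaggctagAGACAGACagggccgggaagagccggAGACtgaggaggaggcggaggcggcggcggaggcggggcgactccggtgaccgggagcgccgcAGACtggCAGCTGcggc

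GTCT was matched 3 times for ID1, 2 times for ID3, 2 times for ID2, 1 time for ID4, 4 times for BAMBI, 4 times for BMPR2 and 0 times for BMPR1A, and 77.5% of the 35116 RefSeq start windows cut to the same length hold it. GGCGCC was matched 3 times for BAMBI, 1 time for BMPR2 and 0 times in the other 5 windows, against 16.4% of all windows. The E-box was matched 2 times for BMPR1A and 1 time each for BMPR2, ID2 and ID4, and 0 times for ID1, ID3 and BAMBI, against 61.8% of all windows. It was thus found for a gene that rose (ID2) and for genes that were not called (ID4, BMPR1A and BMPR2). No match overlapped a match to another motif. These are matches of letters in a short window, and elements farther from the start were not searched.

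Among the ligands, none passed the test, and BMP4 had both the largest fold change and the lowest level of the 10 genes. BMP4 (ENSG00000125378; chr14:53949736-53958761, reverse strand), the ligand used to differentiate pluripotent cells, had 57, 116 and 62 estimated counts on LN-521 alone against 35, 42 and 51 on LN-521+LN-221, or 2.48, 4.36 and 2.49 against 1.69, 1.88 and 2.15 CPM. The coatings did not overlap, though LN-521 replicate 2 was far above the other LN-521 wells. The log2 fold change of -0.71 ± 0.23 (SE) did not pass the threshold (edgeR adjusted p = 0.148). It was -0.37 without LN-521 replicate 2 (edgeR adjusted p = 0.484) and -0.84 without LN-521 replicate 1, where it passed (0.0357, within a range of 0.0357 to 0.503 over all alternatives). It also passed without a filter on low counts (edgeR adjusted p = 0.0453).

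BMP2 (ENSG00000125845; chr20:6767664-6780280, forward strand), the ligand most like BMP4, measured 10.3, 8.68 and 9.07 CPM on LN-521 alone against 7.70, 8.75 and 7.64 CPM on LN-521+LN-221. LN-521+LN-221 replicate 2 reached into the LN-521 range. For BMP2 the log2 fold change was -0.22, with a 95% interval of -0.46 to 0.03 (edgeR adjusted p = 0.412).

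BMP7 (ENSG00000101144; chr20:57168748-57266629, reverse strand), of another branch of the ligand family, was the ligand with the highest level. It measured 29.1, 31.3 and 30.98 CPM on LN-521 alone against 30.8, 30.3 and 31.8 CPM on LN-521+LN-221, with the wells interleaved. For BMP7 the log2 fold change was 0.02, with a 95% interval of -0.13 to 0.17 (edgeR adjusted p = 0.930). The deposited TPM values of BMP7 read otherwise, at 13.97, 14.3 and 14.1 on LN-521 alone against 12.5, 10.5 and 13.03 on LN-521+LN-221, without overlap. With limma on log2(TPM + 1) the log2 fold change was -0.22 (limma adjusted p = 0.669). Why the count and per-length scales part for this gene was not tested.

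Neither receptor passed the test. BMPR1A (ENSG00000107779; chr10:86756601-86932838, forward strand), the type I receptor, measured 281, 243 and 273 CPM on LN-521 alone against 247, 241 and 233 CPM on LN-521+LN-221. LN-521 replicate 2 lay among the LN-521+LN-221 wells. The log2 fold change was -0.15, with a 95% interval of -0.27 to -0.02, and did not pass (edgeR adjusted p = 0.250). It passed after a correction for GC content (-0.17, edgeR adjusted p = 0.00874) and without LN-521 replicate 2 (-0.20, edgeR adjusted p = 0.0214), within a range of 0.00443 to 0.962 over all alternatives. BMPR1A counts were not whole in any of the 6 libraries, so the count is partly an estimate. Its processed pseudogenes BMPR1AP1 and BMPR1AP2 held at most 13 and 43.9 counts in a library, against 5119 to 6803 for BMPR1A.

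BMPR2 (ENSG00000204217; chr2:202376936-202567751, forward strand), the type II receptor, measured 32.1, 30.2 and 32.99 CPM on LN-521 alone against 31.3, 33.5 and 30.9 CPM on LN-521+LN-221. The wells interleaved, and the log2 fold change of 0.01 had a 95% interval of -0.15 to 0.16 (edgeR adjusted p = 0.986). The interval does not show that the level was the same.

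BAMBI (ENSG00000095739; chr10:28677342-28682939, forward strand), the pseudoreceptor that BMP signaling induces, measured 18.6, 16.2 and 14.97 CPM on LN-521 alone against 13.4, 13.5 and 13.3 CPM on LN-521+LN-221. Every LN-521+LN-221 well was below every LN-521 well. The log2 fold change of -0.31 ± 0.10 (SE), close in size to those of ID1 and ID3, did not pass (edgeR adjusted p = 0.131), and of the 17 alternatives it passed in 1, the replicate block with the GC correction (edgeR adjusted p = 0.0467, within a range of 0.0467 to 0.754).

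**Figure D3:**
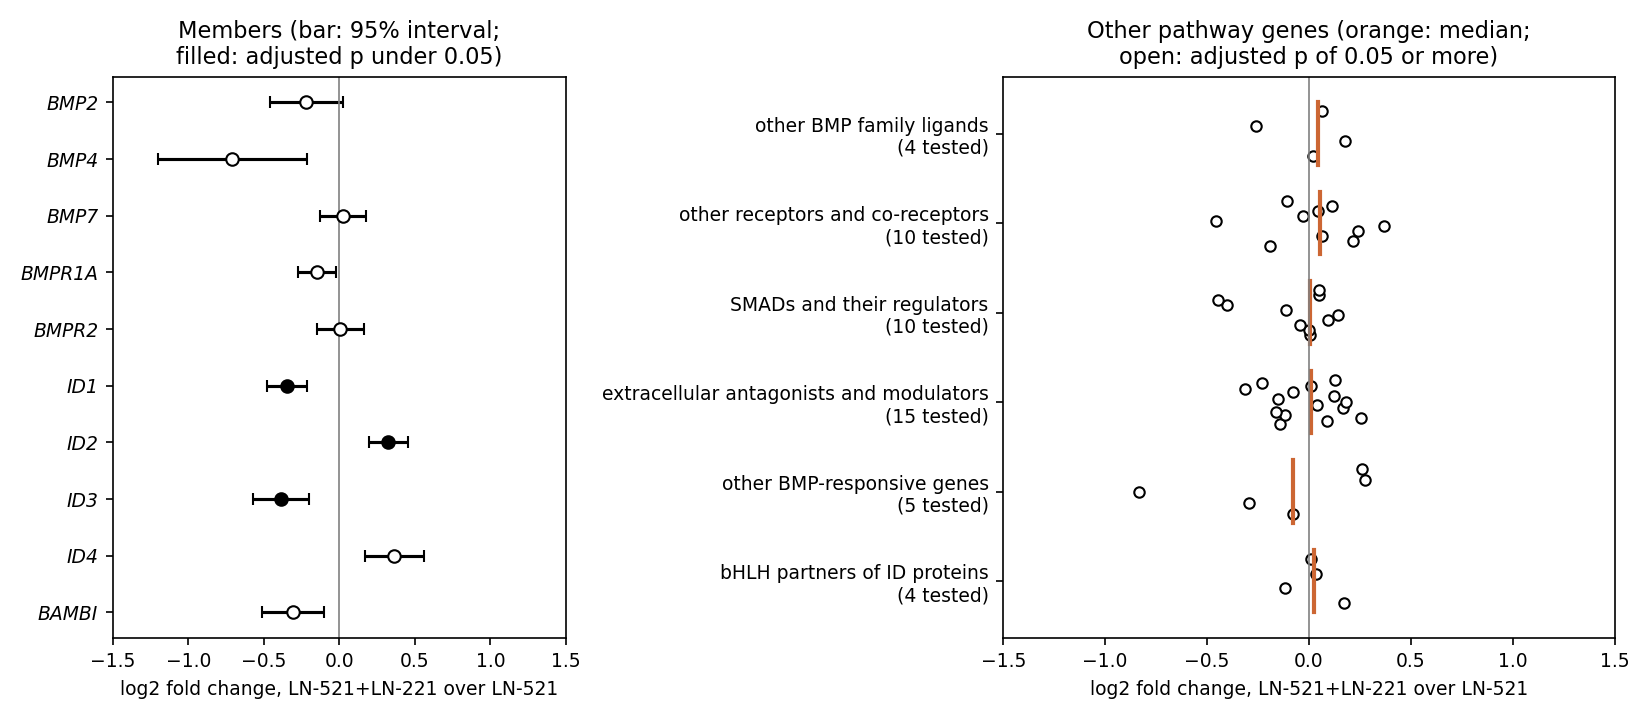
Log2 fold change, LN-521+LN-221 over LN-521 (horizontal axes), of the 10 genes with 95% intervals (left) and of the tested genes of the other pathway lists with their medians (right). Filled points passed an adjusted p-value of 0.05: ID1 and ID3 lie to the left of 0 and ID2 to the right, and no gene of the lists on the right passed.

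Levels of different genes were compared per transcript length. In TPM, the order of the means on LN-521 was ID1 (144 ± 21.3, SD, n = 3), ID2 (67.5 ± 5.98), BMPR1A (39.4 ± 9.60), ID4 (20.4 ± 5.29), ID3 (16.97 ± 1.94), BMP7 (14.1 ± 0.154), BAMBI (7.74 ± 1.49), BMPR2 (3.77 ± 0.9996), BMP2 (2.17 ± 0.401) and BMP4 (1.78 ± 0.270). The order was the same on LN-521+LN-221, with ID1 at 116.3 ± 5.56 and BMP4 at 1.16 ± 0.0751 TPM (SD, n = 3 each). ID1 was thus the highest and BMP4 the lowest of the 10 in both groups. On LN-521 the wells of ID4 and ID3, of BMPR2 and BMP2 and of BMP2 and BMP4 overlapped as neighbours, and on LN-521+LN-221 those of ID3 and BMP7 did. RNAs of the 7SL family took 30.1% to 37.3% of the TPM, which lowers all other TPM values in a library by its share. With 1543 genes of 7SL, 7SK, ribosomal RNA and mitochondrial RNA removed and the rest rescaled, the order did not change in either group. ID4 then no longer overlapped between the coatings, at 29.8 to 42.0 on LN-521 alone against 42.8 to 45.6 on LN-521+LN-221, where the deposited values were 17.2 to 26.5 and 25.7 to 28.1 TPM.

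**Figure D4:**
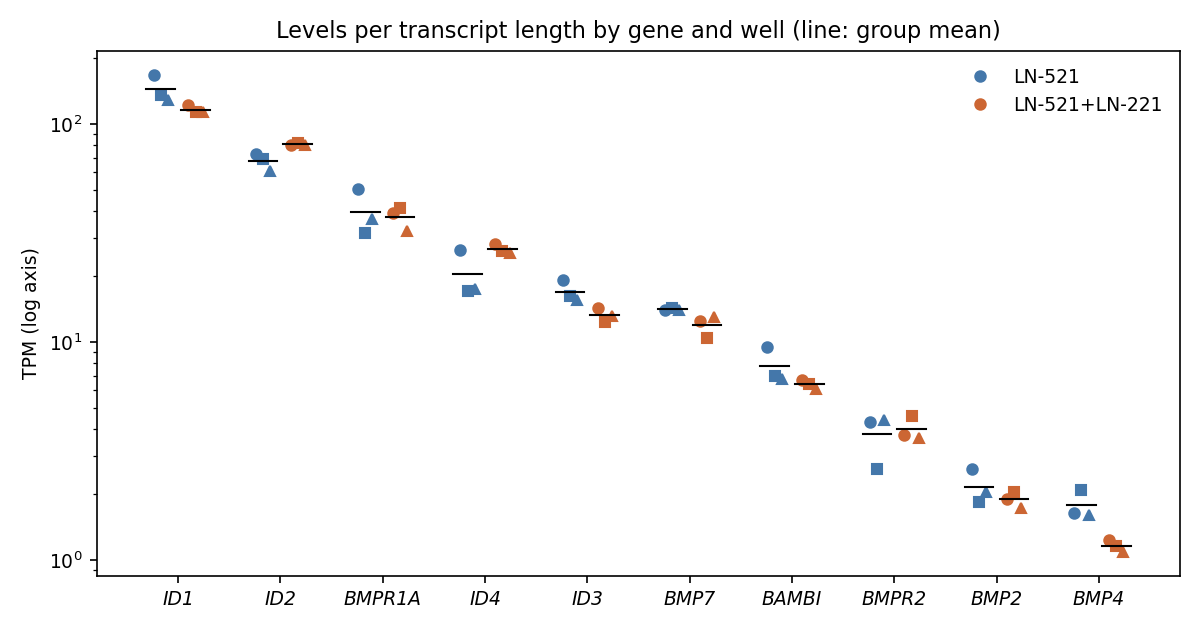
Deposited TPM (vertical log axis) of the 10 genes (horizontal axis) in each well, ordered by the LN-521 mean, with lines at group means. ID1 is highest and BMP4 lowest on both coatings.

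The rest of the pathway was read from 6 lists that hold 72 genes without the 10 above. Of these, 48 passed the filter and 0 passed the threshold in the edgeR test, against 2.53% of all genes. DESeq2 called 0 as well, against 1.39% of the 36261 genes it fitted. For 48 genes a count of 0 is near these shares. At an unadjusted p under 0.05 there were 8 genes (16.7%), 6 lower and 2 higher, against 14.5% of all genes, and 12 (25%) did not overlap between the coatings in CPM, against 19.9%. Of these 12, BMP6, BMPR1B, SMAD5, FSTL1 and HES1 (5 genes) were higher on LN-521+LN-221, and RGMB, ENG, SMAD7, SMAD9, CRIM1, MSX2 and TCF12 (7 genes) were lower; all are listed, after their values were seen. Where genes below are said to pass without LN-521 replicate 1, that fit called 6.54% of all genes, so that the 3 of 48 pathway genes it called are near the share of all genes. The median log2 fold change of the 48 was 0.01 and that of all genes tested -0.0011.

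Among other ligands 4 of 11 genes passed the filter on low counts. BMP6, close to BMP7, was at 1.88 ± 0.104 CPM on LN-521 alone against 2.12 ± 0.0645 CPM with LN-221 added (SD, n = 3 each; edgeR adjusted p = 0.756), without overlap, and BMP3 at 0.909 ± 0.231 and 0.919 ± 0.245 CPM (edgeR adjusted p = 0.987). The other 7 had too few counts, up to 13 in a library for BMP5.

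Of the other receptors and co-receptors all 10 were tested. ACVR2B, an activin type II receptor that BMPs also use, was at 447 ± 24.9 and 467 ± 7.79 CPM (SD, n = 3 each; edgeR adjusted p = 0.633), and RGMA, a BMP co-receptor, at 48.1 ± 4.60 and 52.1 ± 3.37 CPM (edgeR adjusted p = 0.543). The smallest p-value of this list was that of ACVR2A, at 0.21 ± 0.07 (SE; edgeR adjusted p = 0.155), which passed without LN-521 replicate 1 (edgeR adjusted p = 0.0127). ENG, the co-receptor endoglin, did not overlap, at 2.26 to 2.40 CPM on LN-521 alone against 1.61 to 1.73 CPM on LN-521+LN-221 (edgeR adjusted p = 0.292). ACVR2A and ENG were named after their values were seen.

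The SMAD list, tested for all 10 genes, held the gene of the pathway lists nearest to the threshold. SMAD7, an inhibitory SMAD induced by BMP and by transforming growth factor-beta, measured 8.67, 9.02 and 9.39 CPM on LN-521 alone against 6.31, 7.18 and 7.01 CPM on LN-521+LN-221. The wells did not overlap, and the log2 fold change was -0.40 ± 0.11 (SE; edgeR adjusted p = 0.0772). It passed without LN-521 replicate 1 (edgeR adjusted p = 0.0436). SMAD6, the inhibitory SMAD more specific to BMP signals, was at 8.78 ± 0.442 and 8.13 ± 0.291 CPM (SD, n = 3 each) with overlapping wells (edgeR adjusted p = 0.702). SMAD9 was at 3.59 ± 0.583 and 2.62 ± 0.309 CPM (SD, n = 3 each), without overlap (edgeR adjusted p = 0.258). SMAD1, SMAD6, SMAD7 and SMAD9 were named after their values were seen.

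The SMADs that carry a BMP signal to the nucleus lay on both sides of 0 in log2 fold change, SMAD4 (0.09) and SMAD5 (0.14) above it and SMAD1 (-0.04) and SMAD9 (-0.45) below, and none passed. SMAD4, the common partner, was at 233 ± 18.4 and 248 ± 4.88 CPM (SD, n = 3 each; edgeR adjusted p = 0.510), and passed without LN-521 replicate 1 (edgeR adjusted p = 0.0433). SMAD5, a BMP-activated SMAD, was at 112 ± 2.52 and 123.9 ± 2.96 CPM (SD, n = 3 each), without overlap (edgeR adjusted p = 0.217).

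Of the extracellular antagonists and modulators 15 of 21 were tested. FSTL1, a follistatin-like protein, was at 706 ± 18.9 and 726 ± 0.556 CPM without overlap (SD, n = 3 each; edgeR adjusted p = 0.771), and FST, follistatin, which binds activin and some BMPs, at 27.7 ± 2.93 and 31.1 ± 1.90 CPM (edgeR adjusted p = 0.395). NOG, the BMP antagonist noggin and named after its values were seen, had 3 to 16 counts per library and was not tested.

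The other BMP-responsive genes mostly had few counts, and 5 of 13 were tested. The smallest p-value of this list was that of MSX2, named after its values were seen, with 7 to 17 counts per library. Its log2 fold change was -0.83 ± 0.38 (SE; edgeR adjusted p = 0.321), and its wells did not overlap in CPM. TFAP2A, of early ectoderm and amnion, was at 3.28 ± 0.644 and 3.91 ± 0.494 CPM (SD, n = 3 each; edgeR adjusted p = 0.554), and GATA2 at 2.17 ± 0.123 and 2.05 ± 0.282 CPM (edgeR adjusted p = 0.902).

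The helix-loop-helix partners of ID proteins did not pass, with 4 of 7 tested. TCF3, an E protein, was at 243 ± 18.5 and 249 ± 6.91 CPM (SD, n = 3 each; edgeR adjusted p = 0.834), and TCF12, another, at 194 ± 4.40 and 179 ± 4.38 CPM (edgeR adjusted p = 0.306). TCF12 wells did not overlap between the coatings.

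Genes with a pattern close to ID1 or BMP4 across the 6 libraries were named by the root mean square distance of log2 CPM, centred on each gene, among 10075 genes with a symbol and a mean of at least 10 CPM. Nearest to ID1 were NMU at 0.040, ITM2A at 0.043 and ZC3H3 at 0.048, against a median distance of 0.20. NMU fell by 0.36 (edgeR adjusted p = 0.0370) and ITM2A by 0.37 (edgeR adjusted p = 0.00910) on the log2 scale, and ZC3H3 had a change of -0.31 (edgeR adjusted p = 0.117). NMU lost its call when any 1 of 5 libraries, all but LN-521 replicate 1, was left out, and ITM2A when any LN-521+LN-221 library was. Nearest to BMP4, though much farther, were CILP2 at 0.19, the pseudogene PKD1P6 at 0.196 and D2HGDH at 0.21, against a median of 0.43. On the log2 scale CILP2 fell by 0.53 (edgeR adjusted p = 0.0315) and PKD1P6 by 0.45 (edgeR adjusted p = 0.0247), and D2HGDH had a change of -0.31 (edgeR adjusted p = 0.269). CILP2 lost its call when any 1 of 5 libraries, all but LN-521 replicate 1, was left out, and PKD1P6 when LN-521 replicate 3 or any LN-521+LN-221 library was, while D2HGDH passed without LN-521 replicate 1 (edgeR adjusted p = 0.0357). The distances describe the same 6 libraries as the fold changes.

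**Figure D5:**
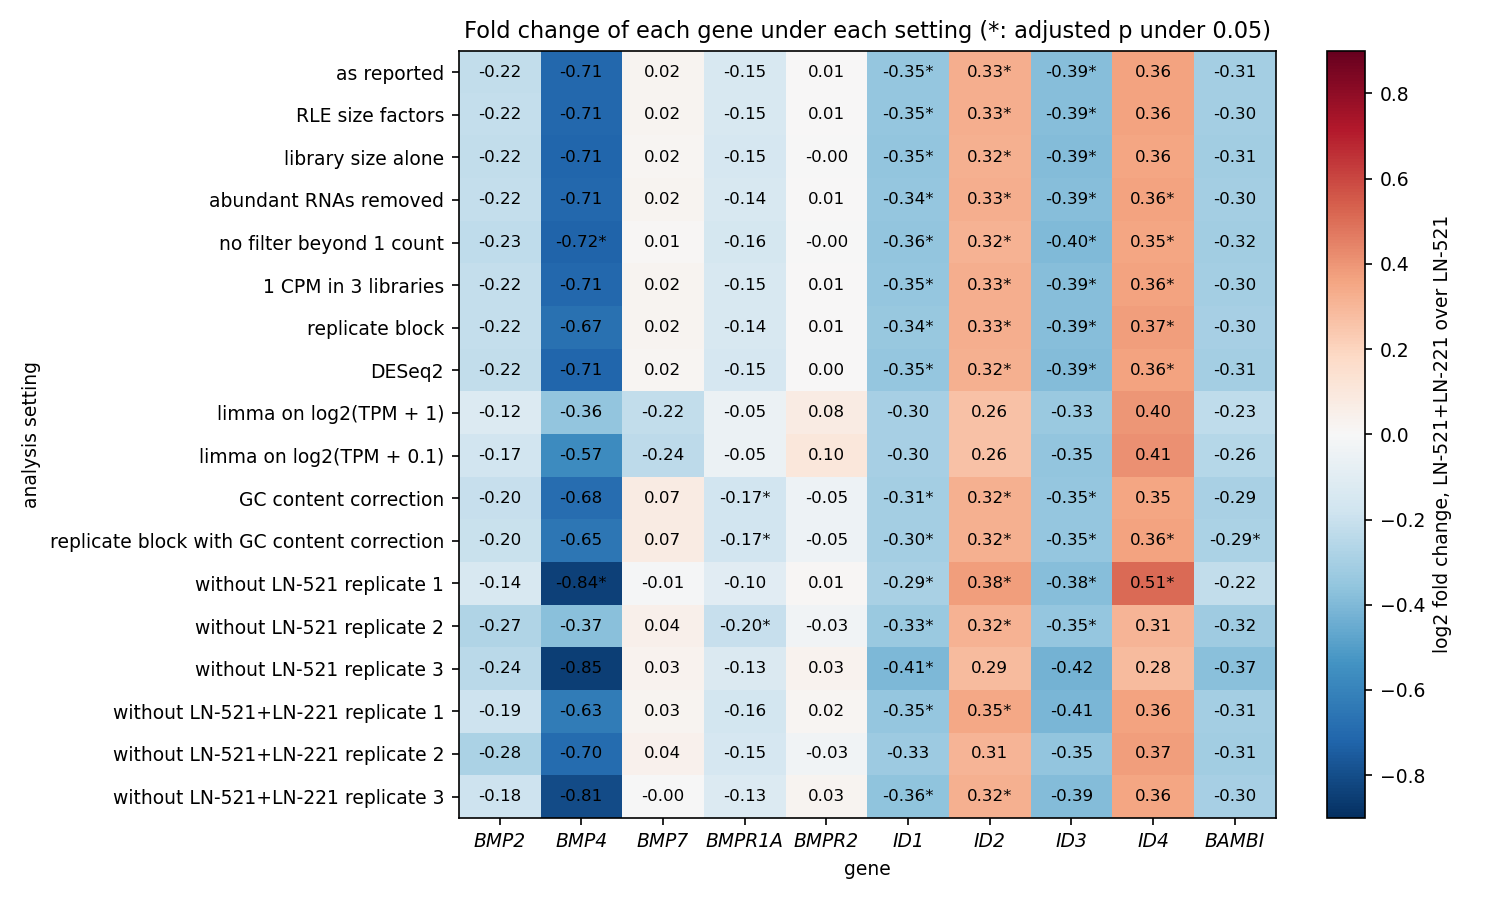
Log2 fold change of each gene (columns) in each analysis setting (rows), with colour by value and an asterisk where the adjusted p-value was under 0.05. ID1, ID2, ID3, ID4, BMP2, BMP4, BMPR1A and BAMBI keep their sign in all 17 alternatives, while BMP7 and BMPR2, near 0, do not.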

How the data were processed

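Total RNA of 6 wells of H1 cells was sequenced with a stranded kit in pairs of 150 bp, per the labels' protocols. The submitters' processing notes name cutadapt, STAR 2.5.2b, RSEM 1.2.31 and the build hg38, without their roles. The authors deposited estimated counts per gene, of which 6.08% to 6.67% per library are not whole, and TPM values, which correct for transcript length and sum to the same total per library. The gene annotation and the use of strand are not given in the sources used here. Positions, transcript GC content and overlapping exons came from GENCODE 29 (GRCh38). Gene IDs were matched to symbols by a name table that held 93.1% of them. Upstream sequences came from RefSeq for 7 of the members, of which 4 are shown, without annotated untranslated bases.

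Estimated counts were rounded, filtered by filterByExpr (minimum count 10), scaled by trimmed means of M-values (TMM) and tested with edgeR 4.0.16 (R 4.3.3, robust quasi-likelihood) on all 6 libraries. P-values were adjusted over all 17608 genes tested. CPM are counts over TMM-scaled library sizes. The SE is the absolute log2 fold change over the square root of F. Intervals are log2 fold change ± the t quantile of edgeR's degrees of freedom times the SE. Fold changes are LN-521+LN-221 over LN-521. The script was tested on simulated data. All libraries differed from each other by more than sampling noise (chi-square per degree of freedom at least 2.89).

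The members and gene lists were chosen with earlier results of these data known. The genes named are the 10 members, list genes past the threshold or else the 2 tested genes of highest TPM per list, and the 3 genes nearest to ID1 and to BMP4. Other genes named, and the marker genes named singly, were chosen after their values were seen. Alternatives were RLE size factors, library size alone, removal of 7SL, 7SK, ribosomal and mitochondrial RNA, a filter of only 1 count in all, a floor of 1 CPM reached by 3 libraries, the replicate number as a block, DESeq2 1.42.0, limma 3.58.1 with a trend on log2 TPM, with a pseudocount of 1 or 0.1, where 3 libraries reached 1 TPM, a GC correction (lowess, span 0.3) with and without the block, and each library left out.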

Additional observations from a re-analysis of the deposited data

How the results depend on the processing

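Of all genes 446 passed the threshold. The count was 448 with RLE, 420 with library size alone, 458 without abundant RNAs, 464 with the CPM filter and 505 with DESeq2. It was 718 without a filter (46.8% higher, so that the balance turned, against 55.2% as reported), 952 with the GC correction, 44 (75.0% higher) with limma on log2(TPM + 1) and 20 (60.0% higher) with log2(TPM + 0.1), and from 194 to 1179 with a library left out, the 1179 without LN-521 replicate 1. Of the 10 members 3 passed, with 4 (ID1 to ID4) under DESeq2, without abundant RNAs and with the CPM filter, 4 with the GC correction (ID1 to ID3 and BMPR1A), 5 without a filter (ID1 to ID4 and BMP4), 0 in both TPM fits and from 0 to 5 with a library left out. Of the pathway genes 0 passed, against 2.53% of all genes, with 0 to 3 when a library was left out. These 3, SMAD7, ACVR2A and SMAD4, passed without LN-521 replicate 1, where 6.54% of all genes did. The median level of the members was 13.7 TPM as deposited and 22.8 TPM without abundant RNAs. The cause of these shifts was not tested.

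With the replicate block 646 genes and 4 members (ID1 to ID4) passed, and with the block and the GC correction 1168 genes, 6 members (ID1 to ID4, BMPR1A and BAMBI) and 2 pathway genes (ACVR2A and TCF12). The labels do not say that a number marks a shared source. Deviations from group means correlated at -0.022 to 0.047 in the 3 same-numbered pairs, none over 0.1, and 3 of 6 libraries correlated best with their own number. The reported values use no block.

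Genes near 0 changed sign, with highest values when a library was left out of 0.044 for BMP7, 0.032 for BMPR2, 0.24 for BMP3 and 0.10 for TCF3. BMP7 was -0.22 and -0.24 in the TPM fits, -0.0094 without LN-521 replicate 1 and -0.0003 without LN-521+LN-221 replicate 3. BMPR2 was -0.0011 with library size alone, -0.0048 without a filter, -0.045 with the GC correction, with or without the block, -0.028 without LN-521 replicate 2 and -0.031 without LN-521+LN-221 replicate 2. BMP3 was -0.023 with the GC correction, -0.026 with the block added, and -0.072, -0.091 and -0.19 without LN-521 replicate 2 or 3 or LN-521+LN-221 replicate 2. TCF3 was -0.0020 without LN-521 replicate 1.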
